A study of Mus musculus with 12 samples.

Results

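Histone mRNAs of the mouse T lymphoma line EL-4 were followed through 37 probe sets of 36 genes, out of 35399 probe sets and 19938 genes with a probe set of their own on the array. A probe set was included when its only gene symbol was that of a clustered histone gene (names beginning with H1f, H2ac, H2bc, H3c or H4c, each followed by a digit) or was H2az1, H2az2, H2ax, H3f3a, H3f3b, Macroh2a1 or Macroh2a2. The rule reads gene symbols only. The 36 genes were 24 replication-dependent histone genes, 7 replacement variants in 8 probe sets (H2az1 had 2) and 5 genes known mainly from germ cells. H3f3b, the other gene of the variant H3.3, was measured only by probe sets that also carry a pseudogene symbol, and these are described apart.

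The cells were first held for 30 min in DMSO or in DMSO with cycloheximide (CHX, 10 µg/ml), which stops translation. They were then left without stimulus, or received phorbol 12-myristate 13-acetate (PMA, 10 ng/ml) with ionomycin (1 µM), together called P/I, for 4 h, which activates signalling downstream of the T cell receptor. The 4 groups were DMSO, DMSO + P/I, CHX and CHX + P/I, with 3 biological replicates and 3 arrays each, so the errors and p-values describe the spread between cultures of a single transformed line. The sources used here do not state how long the CHX cells without P/I stayed in CHX after the pretreatment. When CHX + P/I is compared with CHX, 4 h of P/I and a longer time in CHX therefore cannot be told apart. The same holds for the interaction of P/I and CHX. The CHX effect without P/I may likewise follow a shorter time in CHX than the CHX effect during P/I.

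Replication-dependent histone mRNAs are made in large amounts during S phase, when new DNA has to be packed into nucleosomes. They end in a stem-loop in place of a poly(A) tail, the stem-loop is bound by SLBP, and they are destroyed when replication stops by a route that needs the mRNA to be translated. Replacement variants are encoded by separate genes whose mRNAs are polyadenylated and made throughout the cell cycle, and their proteins enter chromatin outside replication. H2ax lies between these classes, because its mRNA occurs in a stem-loop form and in a polyadenylated form.

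Promoter sequences are given first, because the classes are known to be transcribed from different kinds of promoter. RefSeq windows (GRCm38.p6) from 250 bases before to 50 bases after the annotated start were available for 31 of the 36 genes, 20 of them replication-dependent, 6 replacement and 5 germ-cell, and not for H2bc4, H2bc21, H3c7, H4c14 and H2ax. The 250 bases before the start are given for 6 genes on which the results below turn, 5' to 3' on the strand of the gene. The germ-cell gene H2ac1 (chr13:23934187-23934436, plus strand) shares its promoter with H2bc1, and both rose with CHX during P/I. H2bc3 (chr13:23746484-23746733, plus strand) and H2bc8 (chr13:23571150-23571399, plus strand) are replication-dependent H2B genes with an octamer close to the start. The linker histone genes H1f2 (chr13:23738557-23738806, plus strand) and H1f5 (chr13:21780626-21780875, minus strand) belong to the same family, and of them H1f2 was called and H1f5 was not. H2az1 (chr3:137864237-137864486, plus strand) stands for the replacement variants. Capitals mark the letters searched for, on either strand: the octamer ATTTGCAT (bound by the factor Oct-1), CCAAT (bound by NF-Y), TATAAA (the TATA box) and AAACACA (an element known from H1 gene promoters).
H2ac1: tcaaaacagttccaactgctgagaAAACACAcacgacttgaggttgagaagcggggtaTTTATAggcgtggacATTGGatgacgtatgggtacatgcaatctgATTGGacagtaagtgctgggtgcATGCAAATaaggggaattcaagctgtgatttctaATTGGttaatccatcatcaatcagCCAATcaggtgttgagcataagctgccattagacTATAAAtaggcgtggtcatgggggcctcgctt
H2bc3: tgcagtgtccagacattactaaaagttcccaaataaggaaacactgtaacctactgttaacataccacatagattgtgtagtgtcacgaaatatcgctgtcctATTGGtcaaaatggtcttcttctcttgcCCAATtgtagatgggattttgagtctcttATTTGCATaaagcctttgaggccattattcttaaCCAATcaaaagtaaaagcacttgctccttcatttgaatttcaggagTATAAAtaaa
H2bc8: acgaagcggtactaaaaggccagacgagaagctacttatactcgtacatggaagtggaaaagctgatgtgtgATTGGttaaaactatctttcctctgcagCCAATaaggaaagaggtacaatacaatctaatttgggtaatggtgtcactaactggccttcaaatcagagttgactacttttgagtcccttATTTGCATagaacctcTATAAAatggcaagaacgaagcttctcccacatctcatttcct
H1f2: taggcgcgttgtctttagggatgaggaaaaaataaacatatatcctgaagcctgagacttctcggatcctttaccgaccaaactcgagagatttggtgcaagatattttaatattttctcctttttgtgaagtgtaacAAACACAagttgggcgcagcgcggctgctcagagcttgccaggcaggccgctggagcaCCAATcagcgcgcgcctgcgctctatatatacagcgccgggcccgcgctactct
H1f5: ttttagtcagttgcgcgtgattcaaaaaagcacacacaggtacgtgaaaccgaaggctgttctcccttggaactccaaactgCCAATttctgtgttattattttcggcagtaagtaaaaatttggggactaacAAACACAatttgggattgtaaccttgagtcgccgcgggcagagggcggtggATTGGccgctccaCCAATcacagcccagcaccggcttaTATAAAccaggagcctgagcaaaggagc
H2az1: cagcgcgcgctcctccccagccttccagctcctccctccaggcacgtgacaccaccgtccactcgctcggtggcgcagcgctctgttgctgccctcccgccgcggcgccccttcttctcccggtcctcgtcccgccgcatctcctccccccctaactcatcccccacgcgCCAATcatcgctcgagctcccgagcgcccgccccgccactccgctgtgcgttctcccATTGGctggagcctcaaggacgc

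The octamer was in the window of 6 of 20 replication-dependent genes, 0 of 6 replacement variants and 2 of 5 germ-cell genes, against 1.97% of the 27025 genes with windows. It was found in 4 of 6 H2B and 2 of 3 H2A genes and in no window of an H1, H3 or H4 gene. For the divergent pairs H2ac8 with H2bc8 (180 bases between starts) and H2ac1 with H2bc1 (281 bases), the same octamer was counted for both genes. Matches of the other motifs in the bases that a pair shares were also counted for both genes. CCAAT was present for 17 of 20 replication-dependent genes, 4 of 6 replacement variants and 4 of 5 germ-cell genes (41.1% of all genes). TATAAA was present for 13 of 20, 0 of 6 and 2 of 5 (15.7% of all genes). Matches were counted at any position in the window, and those of TATAAA were centred from -247.5 (H4c6) to 23.5 (H2ac15) bases from the start. AAACACA was found for 3 of 4 replication-dependent H1 genes (H1f2, H1f3 and H1f5), for H2ac4 and H2bc14, for the replacement variant H3f3a and for the germ-cell genes H1f6, H2ac1 and H2bc1 (8.22% of all genes). These are matches of letters and not measured binding.

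**Figure D1:**
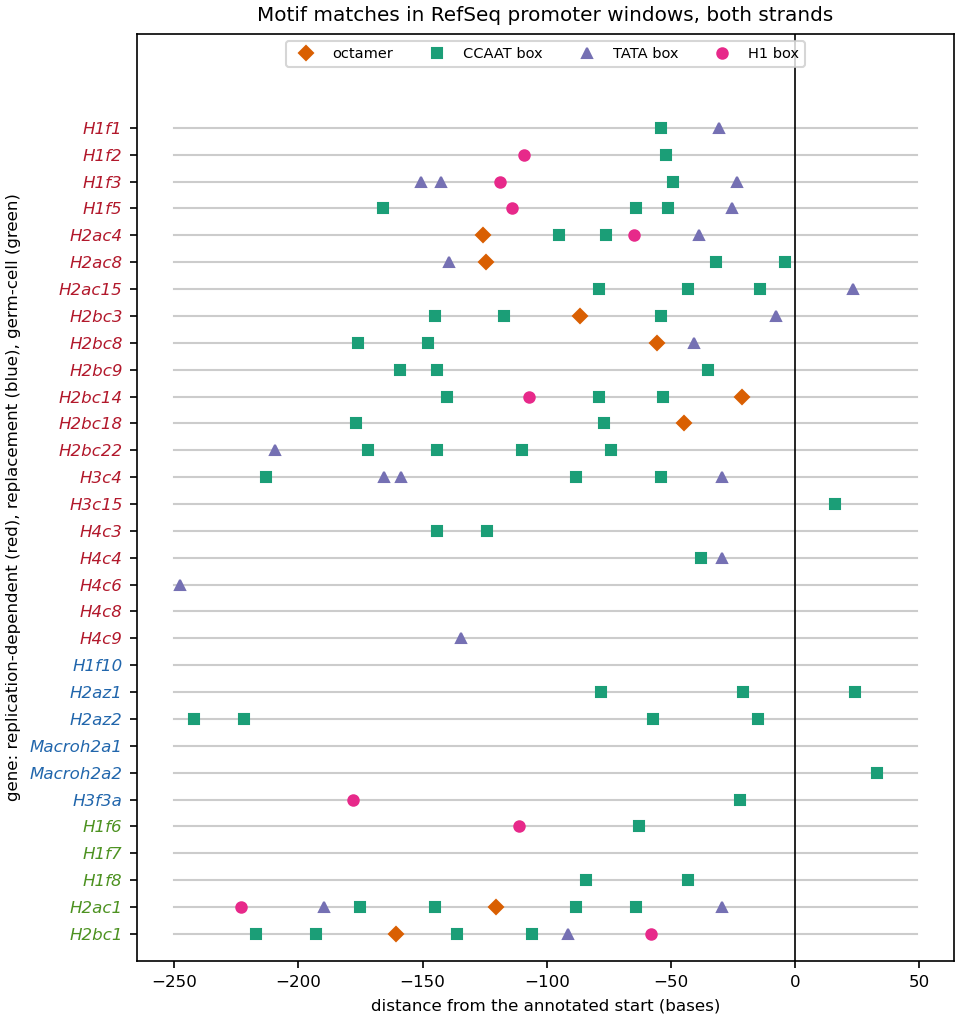
Matches of the 4 motifs in the promoter windows of 31 histone genes (y axis, coloured by class), by distance from the annotated start in bases (x axis, 250 before to 50 after). Octamers lie in windows of H2A and H2B genes, and no window of a replacement variant holds an octamer or TATAAA.

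Of the cell type markers, 7 measured T cell genes had array means of log2 10.08 to 10.55 on the 12 arrays. The array means were 4.62 to 4.80 over 5 myeloid markers and 5.12 to 5.46 over 4 B cell markers, of which Cd79b reached log2 7.70, on a scale whose smallest value was 3.47. Within groups, arrays had correlations of 0.983 to 0.994 over all 35399 probe sets, and no arrays were identical. Each of the 12 arrays deviated from its group mean most like an array of the same replicate number in another group, so results that rest on the 4 replicate 1 arrays are also given without them. Values are the log2 robust multichip average (RMA) levels of the authors. A difference of 1 on this scale is a doubling, and because arrays were normalized to each other, each difference is relative to the other probe sets. No order of abundance is read between probe sets. The histone genes of a family are nearly identical in sequence, so a probe set may also have measured close relatives, and the values of single genes are uncertain to that extent.

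With P/I alone, no histone probe set passed the threshold. The replication-dependent genes had a median P/I effect (DMSO + P/I minus DMSO) of log2 -0.0012, with a range from -0.34 for H3c15 to 0.35 for H2bc8, beside a median of -0.03 over all 23410 probe sets tested. By limma with the Benjamini-Hochberg adjusted p under 0.1 that serves as threshold throughout, 0 of the 37 probe sets were called in either direction, while 9.05% of all tested probe sets were higher and 8.42% lower. The smallest adjusted p among them was 0.129, for H2bc8. At an unadjusted p under 0.05 there were 2 of 37, H2bc8 (higher) and H2ac15 (lower, log2 -0.22), against 11.8% higher and 12.1% lower among all tested probe sets. The 8 replacement probe sets had a median of -0.10 and the 5 germ-cell genes a median of -0.15. H2bc8 was called after median centring (adjusted p = 0.0884 from limma), quantile normalization (0.0906), without CHX replicate 1 (0.0856) and without DMSO + P/I replicate 3 (0.0743), and H2ac15 after quantile normalization (0.0422) and without DMSO + P/I replicate 1 (0.0923). H3c15 was called lower without DMSO replicate 1 (log2 -0.51, adjusted p = 0.0491) or without the 4 replicate 1 arrays (log2 -0.60, adjusted p = 0.00263), as was, without those 4 arrays, H2az2 (log2 -0.45, adjusted p = 0.0433), while H1f10 (log2 0.29, adjusted p = 0.0599) and H1f8 (log2 0.29, adjusted p = 0.079) were then called higher and H1f8 also without DMSO + P/I replicate 1 (log2 0.42, adjusted p = 0.041), all from limma. H3c15 and H1f8 had a low signal, at the 21.4th and 20.7th percentiles of all tested probe sets in DMSO. RNA came from whole cultures, so a change in the share of cells that express a gene and a change in mRNA per cell cannot be told apart, here and below.

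CHX during P/I raised nearly the whole replication-dependent class, while 6 of the 8 replacement probe sets did not pass the threshold. When CHX + P/I was compared with DMSO + P/I, 23 of 24 replication-dependent genes were higher and 0 were lower, against 13.2% higher and 12% lower among all tested probe sets. All 24 had a difference above 0, as had 52.1% of all tested probe sets, and of the 37 histone probe sets 28 were called in either direction, against 25.3%. The median difference of the replication-dependent genes was log2 1.42, ranging from 0.16 for H1f5 to 5.29 for H2bc4, beside 0.01 over all tested probe sets. The 3 CHX + P/I arrays lay above the 3 DMSO + P/I arrays for 23 of 24, which was so for 15.3% of all probe sets. Of the 8 replacement probe sets 1 was higher, 1 was lower and 6 were not called, with a median of 0.01. Of the 5 germ-cell genes 3 were higher and 2 were not called, with a median of 0.32. Expressed for each array as the class median relative to the mean of the DMSO arrays, the replication-dependent genes stood at -0.12 to 0.11 in DMSO, -0.06 to 0.12 in DMSO + P/I, 0.25 to 0.41 in CHX and 1.33 to 1.59 in CHX + P/I. The class median of the replacement probe sets stayed between -0.15 and 0.07 on all 12 arrays.

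**Figure D2:**
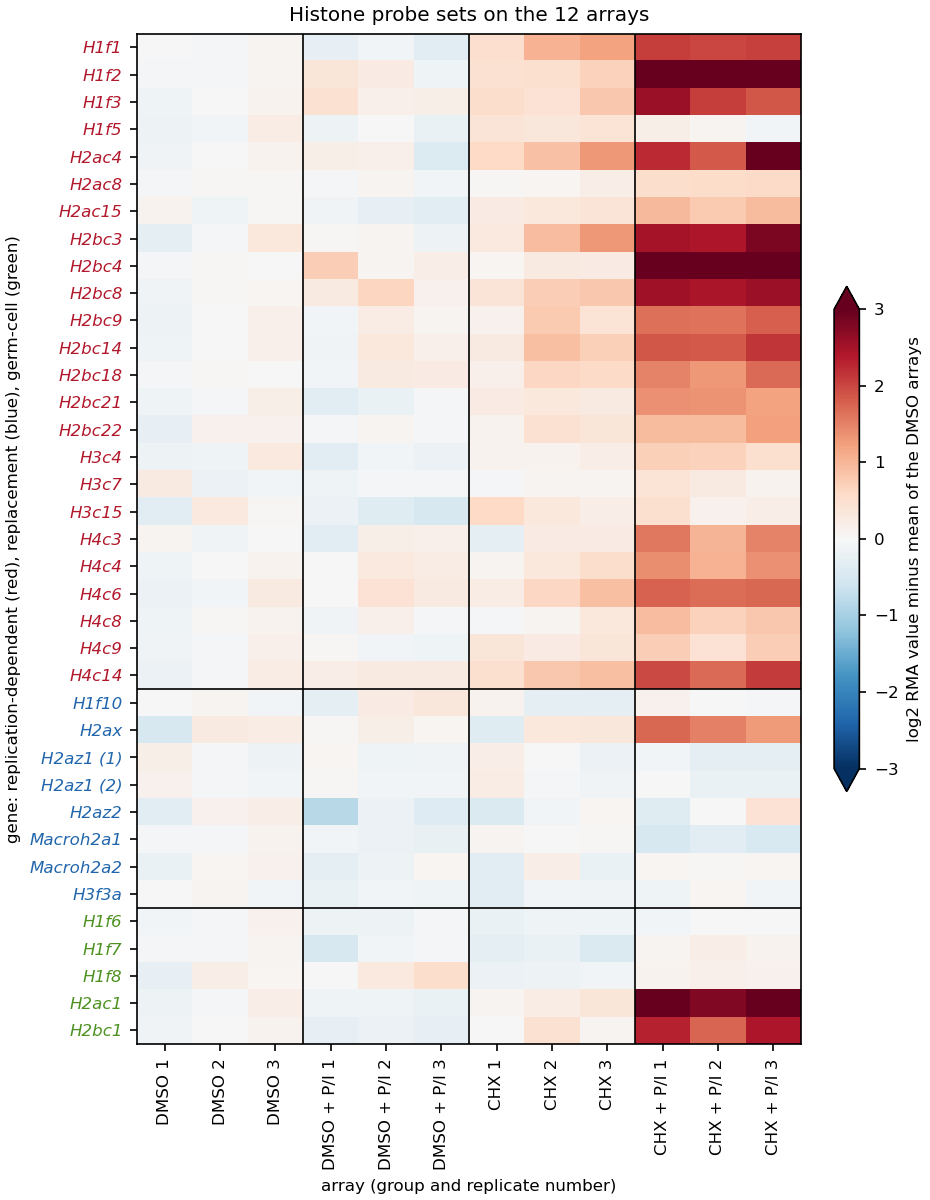
Level of the 37 histone probe sets (rows, red names replication-dependent, blue replacement, green germ-cell) on the 12 arrays (columns, by group and replicate), as the log2 RMA value minus the mean of the 3 DMSO arrays (colour, cut at 3 on either side). The 3 CHX + P/I arrays are red for nearly all replication-dependent genes, for H2ax and for the germ-cell genes H2ac1 and H2bc1.

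**Figure D3:**
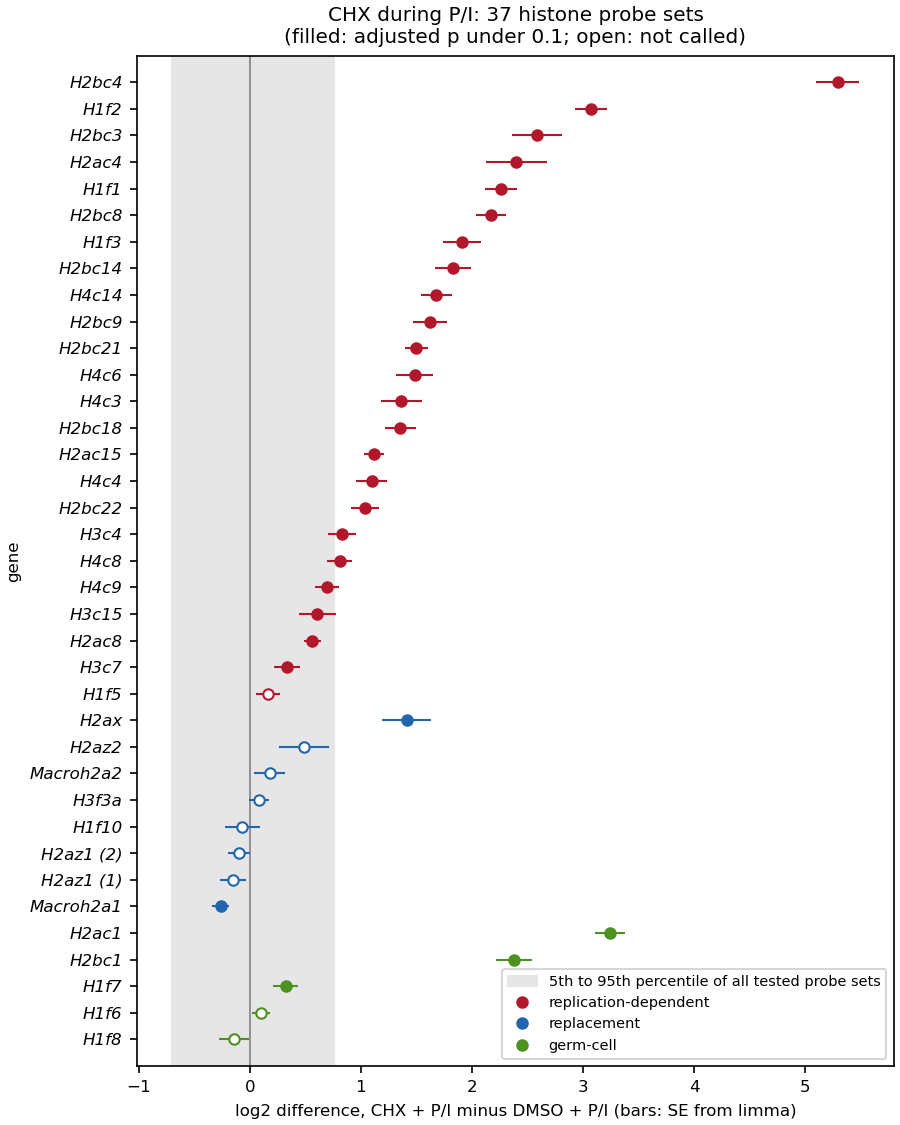
CHX effect during P/I (x axis, log2 CHX + P/I minus DMSO + P/I, points, with bars for the SE from limma) for each of the 37 probe sets (y axis), ordered within class; filled points passed the adjusted p of 0.1 and the grey band is the 5th to 95th percentile of all tested probe sets. H2bc4 lies at 5.29, H2ac1 at 3.24 and most replacement probe sets lie inside the band.

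Linker histones bind the DNA between nucleosomes and compact the fibre, and 4 replication-dependent H1 genes were measured. H1f2 read 6.49, 6.51 and 6.63 in the 3 DMSO arrays, 6.91, 6.79 and 6.4 with P/I, 7.0, 7.03 and 7.23 with CHX and 10.03, 9.69 and 9.58 with CHX + P/I. Only the last group stood well above the others, and it did not overlap any of them. CHX raised H1f2 during P/I by log2 3.07 (SE 0.14, adjusted p = 8.81e-08) from limma, which is 8.38-fold. H1f1 read 10.53, 10.49 and 10.62 with DMSO, 10.30, 10.46 and 10.23 with P/I, 11.06, 11.59 and 11.74 with CHX and 12.62, 12.55 and 12.60 with CHX + P/I. Its 4 groups took the order DMSO + P/I, DMSO, CHX, CHX + P/I without overlap, and CHX during P/I raised it by log2 2.26 (SE 0.14, adjusted p = 9.94e-07) from limma. H1f3 rose with CHX during P/I by log2 1.91 (SE 0.17, adjusted p = 1.2e-05), from 5.84 ± 0.17 to 7.75 ± 0.37 (SD, n = 3, limma).

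H1f5 was the exception among the 24 genes. Its arrays read 12.68, 12.76 and 13.06 with DMSO, 12.69, 12.85 and 12.64 with P/I, 13.23, 13.18 and 13.26 with CHX and 13.01, 12.91 and 12.75 with CHX + P/I. The CHX + P/I arrays overlapped those of DMSO + P/I, which they exceeded by log2 0.16 (SE 0.11, adjusted p = 0.387) in limma. In DMSO its probe set stood at the 99.4th percentile of all tested probe sets, and the highest value of any probe set on any array was log2 14.79. Whether a high signal limited the measured difference was not tested. Its upstream bases hold CCAAT at 3 places, TATAAA and AAACACA, while those of H1f2, printed above, hold CCAAT once and AAACACA. The TATA box was also found for H1f1 and H1f3, which were called higher, so it did not set H1f5 apart. Whether any motif bears on the difference was not tested.

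The core histones H2A and H2B form a dimer that is added to the nucleosome after H3 and H4, and all 11 of their replication-dependent probe sets rose with CHX during P/I. H2bc4 had the largest increase of all 23410 tested probe sets. It read 4.23, 4.30 and 4.28 with DMSO, 5.0, 4.34 and 4.48 with P/I, 4.34, 4.54 and 4.52 with CHX and 10.20, 9.43 and 10.06 with CHX + P/I. The first 3 groups lay near the lower end of the scale, where 5.72% of all tested probe sets lay at or below the DMSO mean, and the CHX + P/I arrays were far above them. CHX + P/I exceeded DMSO + P/I by log2 5.29 (SE 0.20, adjusted p = 1.31e-08) in limma, or 39.1-fold. The deposited values hold no detection call, and where H2bc4 was not above background before CHX + P/I this fold and its differences below are lower bounds. H2bc3 read 8.04, 8.28 and 8.64 with DMSO, 8.36, 8.41 and 8.16 with P/I, 8.60, 9.23 and 9.62 with CHX and 10.80, 10.74 and 11.15 with CHX + P/I. Its CHX arrays overlapped those of DMSO, its CHX + P/I arrays overlapped no other group, and CHX during P/I raised it by log2 2.59 (SE 0.23, adjusted p = 1.07e-05) from limma. H2bc8 rose by log2 2.17 (SE 0.14, adjusted p = 9.44e-07) in the fit of limma. H2bc14 rose by log2 1.83 (SE 0.16, adjusted p = 1.07e-05) in the same fit. The other 4 H2B genes, H2bc9, H2bc18, H2bc21 and H2bc22, rose by log2 1.62, 1.36, 1.5 and 1.04, each with an adjusted p of 0.000109 or less from limma.

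Among the H2A genes, H2ac4 read 6.8, 6.89 and 7.02 with DMSO, 7.08, 7.06 and 6.49 with P/I, 7.51, 7.79 and 8.20 with CHX and 9.15, 8.74 and 9.94 with CHX + P/I. CHX during P/I raised it by log2 2.40 (SE 0.27, adjusted p = 7.1e-05) from limma, with the widest spread between CHX + P/I arrays of all 24 genes (SD 0.61). H2ac15 rose by log2 1.12 (SE 0.091, adjusted p = 6.43e-06) from limma. H2ac8 rose by log2 0.56 (SE 0.076, adjusted p = 0.00025) in limma. H2bc8, given above at log2 2.17, shares with it 279 bases of promoter window. H2ac8 was at 5.34 ± 0.079 in DMSO + P/I and 5.90 ± 0.028 in CHX + P/I (SD, n = 3). The difference in size between the genes of this pair was not tested.

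H3 and H4 form the tetramer at the centre of the nucleosome. The 6 H4 genes rose with CHX during P/I, with a median of log2 1.23. H4c14 read 10.50, 10.66 and 10.91 with DMSO, 10.89, 10.97 and 10.95 with P/I, 11.16, 11.50 and 11.60 with CHX and 12.67, 12.39 and 12.78 with CHX + P/I. The CHX arrays lay above the DMSO arrays and the CHX + P/I arrays above all others, and CHX during P/I raised H4c14 by log2 1.68 (SE 0.14, adjusted p = 6.72e-06) from limma. H4c6 rose by log2 1.49, H4c3 by 1.36, H4c4 by 1.10, H4c8 by 0.81 and H4c9 by 0.70, with adjusted p-values from limma of 0.000533 or less. The 3 H3 genes had a smaller median, log2 0.61. Of these, H3c15 and H3c7 had a low signal, with DMSO + P/I means of 4.49 and 4.86. In DMSO they stood at the 21.4th and 24.7th percentiles of all tested probe sets. Whether a low signal limited their differences was not tested. H3c4 read 6.81, 7.07 and 6.99 with P/I and 7.88, 7.85 and 7.64 with CHX + P/I, without overlap, and rose by log2 0.83 (SE 0.12, adjusted p = 0.000488) from limma. H3c15 rose by log2 0.61 (SE 0.16, adjusted p = 0.0196) from limma. H3c7 rose by log2 0.33 (SE 0.12, adjusted p = 0.0715) from limma, a call that was lost in 5 of the 12 fits that left out 1 array and without the 4 replicate 1 arrays (adjusted p = 0.103 from limma).

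The replacement variants include H2A.Z, placed at promoters, H3.3, placed at active genes, macroH2A, common in repressed chromatin, H2A.X, phosphorylated at DNA breaks, and the linker histone H1.10. H2ax was called higher, and no other of the 8 replacement probe sets was. H3f3b, measured only together with a pseudogene, is not among these 8 and is described below. H2ax read 9.20, 9.95 and 9.90 with DMSO, 9.72, 9.87 and 9.74 with P/I, 9.32, 10.00 and 10.01 with CHX and 11.41, 11.19 and 10.97 with CHX + P/I. The first 3 groups overlapped each other, the CHX + P/I arrays stood above them, and CHX during P/I raised H2ax by log2 1.41 (SE 0.22, adjusted p = 0.000618) from limma, or 2.66-fold. A single probe set cannot separate the stem-loop and polyadenylated forms of its mRNA.

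H2az1, which encodes most of H2A.Z, was not called in either of its probe sets. The first read 11.67, 11.45 and 11.34 with DMSO, 11.54, 11.36 and 11.38 with P/I, 11.69, 11.48 and 11.31 with CHX and 11.40, 11.22 and 11.21 with CHX + P/I. All 4 groups overlapped, and the CHX effect during P/I was log2 -0.15 (SE 0.12, adjusted p = 0.488) from limma. It was log2 -0.09 (SE 0.10, adjusted p = 0.648) from limma in the second probe set. H2az2, the second H2A.Z gene, read 8.84, 9.50 and 9.29 with P/I and 9.32, 9.67 and 10.11 with CHX + P/I, with overlap, and differed by log2 0.49 (SE 0.23, adjusted p = 0.18) from limma. Its replicate 1 arrays were the lowest of each group, and without the CHX + P/I replicate 1 array the difference was 0.68 and passed the threshold (adjusted p = 0.0641 from limma), as it did without all 4 replicate 1 arrays (log2 0.49, adjusted p = 0.0229) and after median centring (adjusted p = 0.0943). The difference also passed with the replicate number as a block (adjusted p = 0.00407 from limma).

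Macroh2a1 was the replacement member that fell. Its arrays read 10.58, 10.61 and 10.74 with DMSO, 10.55, 10.47 and 10.42 with P/I, 10.72, 10.64 and 10.68 with CHX and 10.16, 10.31 and 10.19 with CHX + P/I. The CHX + P/I arrays were the lowest, without overlap, at log2 -0.26 (SE 0.077, adjusted p = 0.0294) from DMSO + P/I by limma. This call was lost after median centring (log2 -0.20, adjusted p = 0.116) and without the 4 replicate 1 arrays (log2 -0.20, adjusted p = 0.171), both from limma. Macroh2a2 and H3f3a differed by log2 0.18 and 0.08, with adjusted p-values from limma of 0.476 and 0.635, and H1f10, the gene of H1.10, by -0.07 (adjusted p = 0.867 from limma). Without the 4 replicate 1 arrays H1f10 was lower with CHX during P/I by log2 -0.31 (adjusted p = 0.0338 from limma).

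**Figure D4:**
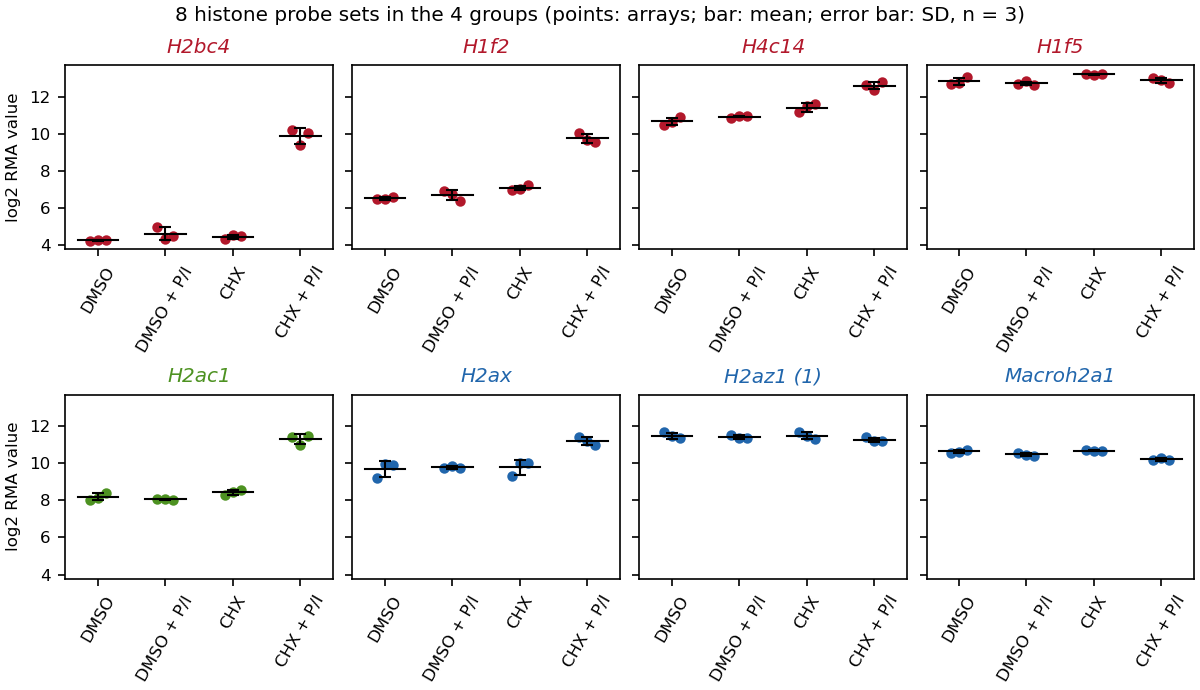
Log2 RMA values (y axis) of 8 histone probe sets in the 4 groups (x axis), red names replication-dependent, green germ-cell and blue replacement; each point is an array, the long bar marks the group mean and the error bar the SD (n = 3). H2bc4, H1f2, H4c14, H2ac1 and H2ax are highest in CHX + P/I, while H1f5, H2az1 and Macroh2a1 are not.

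The germ-cell genes H2ac1 and H2bc1 encode TH2A and TH2B, which replace H2A and H2B in maturing sperm, and lie head to head in the main histone cluster. H2ac1 read 8.04, 8.15 and 8.41 with DMSO, 8.08, 8.07 and 8.0 with P/I, 8.27, 8.43 and 8.57 with CHX and 11.44, 10.97 and 11.45 with CHX + P/I. Its CHX + P/I arrays stood far above the other 9, and CHX during P/I raised it by log2 3.24 (SE 0.14, adjusted p = 4.59e-08) from limma, or 9.45-fold, the 16th largest increase of all tested probe sets. H2bc1 read 6.77, 6.86 and 6.78 with P/I and 9.33, 8.77 and 9.45 with CHX + P/I, without overlap, and rose by log2 2.38 (SE 0.16, adjusted p = 1.87e-06) from limma. H1f7, a linker histone of spermatids, read 5.31, 5.70 and 5.76 with P/I and 5.86, 5.98 and 5.89 with CHX + P/I. The groups did not overlap, and H1f7 rose by log2 0.32 (SE 0.12, adjusted p = 0.0722) from limma. The H1f7 call was lost without the DMSO + P/I replicate 1 array (log2 0.18, adjusted p = 0.198 from limma), without any single CHX + P/I array and without the 4 replicate 1 arrays (log2 0.21, adjusted p = 0.206 from limma). The testis linker histone H1f6 and the oocyte linker histone H1f8 differed by log2 0.10 and -0.14, with adjusted p-values from limma of 0.499 and 0.587. Without the 4 replicate 1 arrays H1f8 was called lower (log2 -0.27, adjusted p = 0.0811 from limma).

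In cells without P/I, the replication-dependent genes lay above their DMSO level in CHX, but none passed the threshold. The time in CHX behind this comparison is not stated and may be shorter than that during P/I. A smaller effect than during P/I therefore cannot be assigned to the absence of P/I. All 24 had a CHX effect (CHX minus DMSO) above 0, against 44.9% of all tested probe sets, with a median of log2 0.38 and a range from 0.03 for H3c7 to 0.93 for H2ac4. The median over all tested probe sets was -0.02. A CHX effect above 0 was also common in related gene lists that are described below. It was found for 42 of 43 DNA replication genes (median log2 0.16) and 32 of 35 genes that make, process and degrade histone mRNA (0.12). It was also found for 26 of 33 histone chaperones and deposition factors (0.10). Of these 3 lists 0 genes were called. By limma 0 of 24 were called, as were only 7 of all 23410 probe sets (0.0299%, all of them higher). The smallest adjusted p of the class was 0.117, for H1f1 (log2 0.92, SE 0.14). An unadjusted p under 0.05 was reached by 18 of 24, all of them higher, against 4.13% of all probe sets. The CHX arrays lay above the DMSO arrays without overlap for 14 of 24, against 7.06% of all probe sets. No replacement probe set had an unadjusted p under 0.05, and their median CHX effect was -0.05. Among germ-cell genes H1f7 had an unadjusted p of 0.0232, in the lower direction (log2 -0.30). An unadjusted p under 0.05 in that direction was found for 2.74% of all probe sets. The count of calls changed with the arrays and the processing. H1f1 was called with no array left out after median centring (adjusted p = 0.0782), with the filter at a mean of log2 5 (0.0882) and with a variance trend (0.0423), all from limma. Blocking on replicate number, also on all 12 arrays, called 4 genes higher. These were H1f1 (adjusted p = 0.0446), H4c14 (0.0488), H2bc14 (0.075) and H2bc8 (0.0758), all from limma. The count was 5 without CHX replicate 1, 1 without DMSO + P/I replicate 1, and 11 without the 4 replicate 1 arrays, among them H1f1 (log2 1.11, adjusted p = 0.00314 from limma), H2bc14, H4c14 and H2bc3. The shares of all tested probe sets called in these other fits were not recorded. Whether calls became more frequent in general therefore cannot be told from these counts.

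In CHX-treated cells, 4 h of P/I came with higher replication-dependent histone mRNA. In CHX + P/I compared with CHX, 21 of 24 genes were higher and 1 was lower, against 10.2% higher and 11.6% lower among all tested probe sets, with a median of log2 1.09. The difference was above 0 for 22 of 24, against 54.8% of all tested probe sets. H2bc4 had the largest of these differences, log2 5.43 (SE 0.20, adjusted p = 2.25e-08) from limma. H2ac1 was higher by log2 2.87, H1f2 by 2.68, H2bc1 by 1.99 and H2bc8 by 1.87. The gene that was lower was H1f5, at log2 -0.33 (SE 0.11, adjusted p = 0.0593) from limma, a call that was lost without any of 5 of the 6 arrays compared and at an adjusted p of 0.05. H4c9 was higher by log2 0.32 (SE 0.11, adjusted p = 0.0609) in limma, a call lost without any of 5 of these arrays. H3c7 and H3c15 were not called, at log2 0.23 and -0.10 (adjusted p = 0.246 and 0.77 from limma). Among replacement probe sets H2ax was higher by log2 1.41 (SE 0.22, adjusted p = 0.000841) and Macroh2a1 was lower at log2 -0.46 (SE 0.077, adjusted p = 0.00128), both from limma, and 6 were not called. H2ac1, H2bc1 and H1f7 of the 5 germ-cell genes were higher.

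The P/I effect was larger in CHX-treated than in DMSO-treated cells for 20 of 24 replication-dependent genes by the interaction term of limma and smaller for 0 of 24, against 6.04% and 7.62% of all tested probe sets. The difference between the P/I effects had a median of log2 0.93 over the class and 0.05 over all tested probe sets. It was above 0 for 23 of 24, against 58.3% of all tested probe sets. For H2bc4 the P/I effect was log2 0.34 in DMSO and 5.43 in CHX, which differ by log2 5.09 (SE 0.28, adjusted p = 1e-06) in limma, the largest increase of the P/I effect among all tested probe sets. For H1f2 it was log2 0.16 and 2.68, a difference of log2 2.52 (SE 0.20, adjusted p = 2.04e-05) from limma. The 4 genes not called were H1f5 (log2 -0.22), H3c7 (0.30), H3c15 (0.24) and H4c9 (0.37). H4c9 was called without CHX + P/I replicate 2 (log2 0.48, adjusted p = 0.0555 from limma), and H3c15 without the 4 replicate 1 arrays (log2 0.51, adjusted p = 0.0506 from limma). Of the 8 replacement probe sets 1 was called, that of H2ax, with P/I effects of log2 0.09 and 1.41 and a difference of log2 1.32 (SE 0.31, adjusted p = 0.0191) from limma. H2az2 was called without the 4 replicate 1 arrays (log2 0.67, adjusted p = 0.0449 from limma). The term also carries any difference in the time spent in CHX, as described above.

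**Figure D5:**
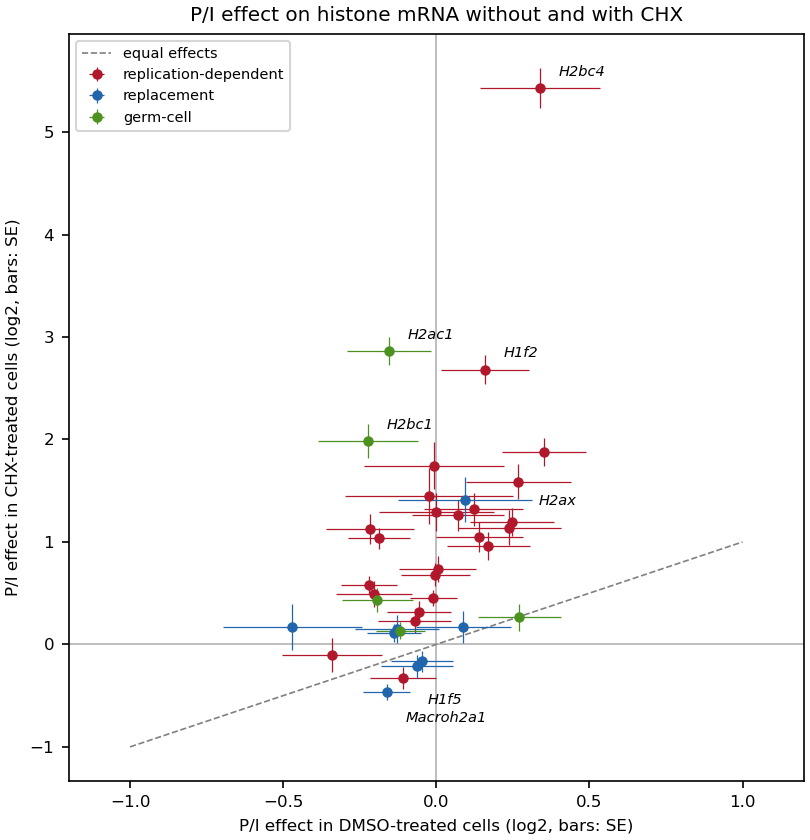
P/I effect on the 37 histone probe sets in DMSO-treated cells (x axis, log2) against that in CHX-treated cells (y axis, log2), with bars for the SE from limma and a dashed line of equal effects; the axes differ in scale. Replication-dependent genes (red) lie within 0.35 of 0 on the x axis and reach 5.43 on the y axis.

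Probe sets with several histone symbols cover genes with and without a probe set of their own, and cannot assign a change to a single gene. Of 24 whose symbols were all clustered histone genes (22 with distinct values), 24 were higher with CHX during P/I, against 13.2% of all tested probe sets. Their median was log2 1.02, with a range from 0.80 to 2.08. They are not 24 separate observations, because the 10 for H3 genes carry the same 12 symbols, H3c4, H3c7 and H3c15 among them. None was called with P/I in DMSO, against 9.05% higher and 8.42% lower of all tested probe sets, and their differences lay between -0.18 and 0.11. The 10 probe sets for H3 genes rose with CHX during P/I by a median of log2 0.87, the 6 for H4 genes 1.02 and the 7 for H2B genes 1.33. The probe set for H2bc6 and H1f4 rose by 1.86 and that for H4c17 and H4c11 by 2.08. H3.3 is encoded by H3f3a and H3f3b. In 4 probe sets for H3f3a with a pseudogene the CHX effect during P/I lay between log2 -0.06 and 0.03 and was not called, while in 2 probe sets for H3f3b with a pseudogene it was 1.06 and 1.12, with adjusted p-values from limma of 1.37e-05 and 3.09e-05. The interaction for these 2 probe sets was log2 0.83 and 0.84 (adjusted p = 0.00267 and 0.00621 from limma), and both were called. The difference between H3f3a and H3f3b was not tested. H2aw and H2bu2, replication-dependent genes of another cluster whose symbols fall outside the rule, were looked at after the other values were known. CHX during P/I raised H2aw by log2 3.24 (SE 0.19, adjusted p = 5.11e-07) and H2bu2 by 1.22 (SE 0.17, adjusted p = 0.00031), both from limma.

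Genes that make, process and degrade histone mRNA were followed in a list of 36, of which 35 were measured. With P/I in DMSO 2 of 35 were higher and 7 lower, against 9.05% and 8.42% of all tested probe sets, with a median of log2 -0.03. With CHX during P/I 14 of 35 were higher and 3 lower, against 13.2% and 12%, with a median of 0.27. Slbp, the stem-loop binding protein that histone mRNA needs for processing and translation, was lower with P/I (log2 -0.34, SE 0.097, adjusted p = 0.0356) and higher with CHX during P/I (log2 0.68, SE 0.097, adjusted p = 0.000343), both from limma. Its mean was log2 9.85 in DMSO, 9.51 in DMSO + P/I and 10.19 in CHX + P/I. Mif4gd, a partner of SLBP in translation, was lower with P/I (log2 -0.74, adjusted p = 0.000174), as were the uridylyltransferase Tut4 (log2 -1.30, adjusted p = 0.000899) and E2f1, a transcription factor of S phase genes (log2 -0.79, adjusted p = 0.00447), all by limma. The 2 genes that were higher with P/I were Nfya (log2 0.48, adjusted p = 0.0156) and Upf1 (log2 0.34, adjusted p = 0.093), both by limma. With CHX during P/I, Hinfp, which activates H4 genes, rose by log2 1.19 (adjusted p = 0.000225) and the 3' end processing and termination factor Pcf11 by 1.63 (adjusted p = 0.00035), while Ccne2, the S phase cyclin E2, was lower (log2 -1.93, adjusted p = 0.000189), all by limma. Npat, the coactivator of replication-dependent histone genes, did not pass the threshold with P/I (log2 -0.21, adjusted p = 0.605) or with CHX during P/I (log2 0.37, adjusted p = 0.257), by limma.

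DNA replication genes, whose mRNAs are also highest around S phase, were followed in a list of 44. Of 43 measured, 1 was higher and 15 were lower with P/I in DMSO, against 9.05% and 8.42% of all tested probe sets, with a median of log2 -0.36. Among those lower were Tk1, the thymidine kinase of S phase (log2 -1.28, adjusted p = 0.00144 from limma) and Rpa1, which binds single-stranded DNA (log2 -0.83, adjusted p = 0.00666 from limma). With CHX during P/I 10 were higher and 1 was lower, against 13.2% and 12%, with a median of log2 0.28. Cdt1, which loads the replicative helicase, was higher (log2 0.66, adjusted p = 0.00182 from limma), Cdc6, of the same step, was the gene that was lower (log2 -0.72, adjusted p = 0.00345 from limma), and the polymerase gene Pole had the highest value (log2 0.89). By the interaction term 0 were higher and 1 was lower, against 6.04% and 7.62%, beside 20 and 0 of the 24 replication-dependent histone genes. Whether the share of cells in S phase changed with P/I or CHX was not measured by these arrays.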

How the data were processed

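RNA of EL-4 cells was hybridised to 12 Affymetrix Mouse Gene 1.0ST arrays, 3 for each of 4 groups. In Partek, the authors applied RMA with a background correction that takes probe sequence into account and with quantile normalization, and they deposited log2 values for 35399 probe sets, with none missing. Versions of these tools are not given in the sources used here. Gene symbols came from the platform annotation given with the series, which named 21789 probe sets with 1 symbol, 1621 with several and 11989 with none, and all 37 member probe sets matched RefSeq by gene identifier with the same symbol.

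A mean for each group was fitted to the log2 values with limma 3.58.1 in R 4.3.3 over the 23410 probe sets with a symbol, with 8 residual degrees of freedom, moderated variances and two-sided tests. A difference was called when its p, adjusted over all of them after Benjamini and Hochberg, was under 0.1, the false discovery rate used in the study's methods. The fit was tested on simulated data. Every member is named in the text. From other lists, genes were named from among those with the smallest p of a comparison, and Npat, Nfya, Upf1, H2aw, H2bu2, H2aj and Hils1 were named after their values were seen. Members and lists were chosen with earlier results of these data known. The first class rule placed H1f7, H1f8 and H1f10 among replication-dependent genes by default. They were moved to the germ-cell class (H1f7, H1f8) and the replacement class (H1f10) after the annotation was seen, and H2aw and H2bu2 were added later still. The alternatives were a replicate block, median centring, quantile normalization, a filter on dim probe sets, an adjusted p of 0.05, an unmoderated model, a variance trend, all probe sets tested, leaving out each array and leaving out the 4 replicate 1 arrays. Promoter windows of RefSeq (GRCm38.p6) were searched for fixed letters on both strands. No array was left out.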

Additional observations from a re-analysis of the deposited data

Results flagged for a closer look

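The P/I effect on 24 of the 37 histone probe sets differed between CHX-treated and DMSO-treated cells by the interaction term of limma (adjusted p between 1e-06 and 0.0328), against 13.7% of all tested probe sets. The difference, given on the log2 scale as the P/I effect in CHX minus that in DMSO, was positive for all 24. Among replication-dependent H1 genes it was H1f1 1.34, H1f2 2.52 and H1f3 1.32. Among H2A genes it was H2ac4 1.47 (a call lost in the unmoderated linear model), H2ac8 0.46 and H2ac15 0.80. Among H2B genes it was H2bc3 1.75, H2bc4 5.09, H2bc8 1.52, H2bc9 1.19, H2bc14 1.2, H2bc18 0.91, H2bc21 1.22 and H2bc22 0.73. The H3 gene H3c4 had a difference of 0.69. Among H4 genes it was H4c3 1.29, H4c4 0.79, H4c6 0.90, H4c8 0.68 and H4c14 0.95. The replacement variant H2ax had a difference of 1.32. The germ-cell genes H2ac1, H2bc1 and H1f7 had differences of 3.02, 2.21 and 0.62. In each of these genes the P/I effect in DMSO lay between log2 -0.22 and 0.35. The time that CHX-treated cells without P/I spent in CHX is not stated in the sources used here, so a part of these differences that comes from longer exposure to CHX cannot be told apart from P/I.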

How the results depend on the processing

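Of 3870 values of single probe sets under the alternatives, 88 had another call than reported and 0 changed sign among called values. The shares of all tested probe sets called under the alternatives were not recorded, so the counts below have no background beside them. Arrays with the same replicate number correlated in their deviations at 0.064 to 0.750 over 18 pairs, and arrays with different numbers at -0.58 to 0.31 over 36 pairs. Each of the 12 arrays was most like an array of its own number, but not all 18 pairs were above 0.1, so the numbers were not treated as pairs. With the replicate number as a block, replication-dependent genes called were 1 higher and 1 lower with P/I in DMSO (0 and 0 without the block) and 4 higher with CHX in unstimulated cells (0 without). Replacement probe sets called with the block were 1 lower with P/I in DMSO, 2 higher with CHX during P/I, 2 lower with P/I in CHX, and 2 higher and 1 lower for the interaction. Among them was H2az2, called with P/I in DMSO (adjusted p = 0.00703), with CHX during P/I (0.00407) and for the interaction (0.0117), all from limma. The block changed no count of replication-dependent genes by over 1.5 times in the other 3 comparisons.

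With median centring, 1 replication-dependent gene was higher with P/I in DMSO and 1 with CHX in unstimulated cells, and 2 replacement probe sets were higher and 0 lower with CHX during P/I. With quantile normalization of the probe sets, 1 replication-dependent gene was higher and 1 lower with P/I in DMSO, and H4c9 was also called for the interaction. The filter at a mean of log2 5 and the variance trend each gave 1 replication-dependent gene higher with CHX in unstimulated cells, and the unmoderated linear model gave 1 replacement probe set lower for the interaction. At an adjusted p of 0.05, 0 replication-dependent genes were lower with P/I in CHX. Without the 4 replicate 1 arrays, 1 replication-dependent gene was lower with P/I in DMSO and 11 were higher with CHX in unstimulated cells, and replacement probe sets called were 1 higher and 1 lower with P/I in DMSO, 2 higher with CHX during P/I and 2 higher for the interaction. The cause of these changes was not tested.

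Leaving out 1 array at a time, replication-dependent genes called were 0 to 1 higher and 0 to 1 lower with P/I in DMSO, 22 to 23 higher with CHX during P/I, 0 to 5 higher with CHX in unstimulated cells, 20 to 21 higher and 0 to 1 lower with P/I in CHX, and 20 to 21 higher for the interaction. Replacement probe sets higher with CHX during P/I were 1 to 2. The median difference with CHX during P/I ranged for the replication-dependent genes from log2 1.31 to 1.5 and that of the replacement probe sets from -0.01 to 0.08. With the classes as first set, an alternative chosen after seeing the data, H1f7, H1f8 and H1f10 joined the 24 replication-dependent genes. Of this larger class 24 were higher with CHX during P/I, H1f7 among them, and H1f5, H1f8 and H1f10 were not called. Precision is limited by 3 arrays per group and, for H2bc4, by a signal near the lower end of the scale in 3 of the 4 groups. The signal of H3c7 and H3c15 was also low.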

Other observations

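Histone chaperones, which carry histones to and from DNA, were called in both directions. Of 33 measured chaperones and deposition factors, 3 were higher and 6 lower with P/I in DMSO, against 9.05% and 8.42% of all tested probe sets, with a median of log2 -0.07. Chaf1a, a subunit of the factor that deposits H3 and H4 behind the replication fork, was lower with P/I (log2 -0.62, SE 0.10, adjusted p = 0.00137), as was Atrx, which deposits H3.3 in heterochromatin (log2 -0.49, SE 0.10, adjusted p = 0.0064), both by limma. With CHX during P/I 9 were higher and 6 lower, against 13.2% and 12%, with a median of 0.26. Ubn1, of the H3.3 deposition complex, was higher (log2 1.25, SE 0.19, adjusted p = 0.000584), and so was the H3 and H4 chaperone Supt6 (log2 0.69, SE 0.12, adjusted p = 0.00126), both by limma. Nap1l1, a chaperone of H2A and H2B, was lower with CHX during P/I (log2 -1.27, SE 0.19, adjusted p = 0.000437 from limma).

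Of 13 other histone genes outside the rule 3 were measured. Cenpa, the H3 variant of centromeres, was lower with P/I (log2 -0.79, SE 0.15, adjusted p = 0.00326) and higher with CHX during P/I (log2 0.72, SE 0.15, adjusted p = 0.00389), with means of log2 9.85 in DMSO, 9.06 in DMSO + P/I and 9.79 in CHX + P/I, all by limma. H2aj, an H2A gene outside the clusters, was lower with CHX during P/I (log2 -0.29, SE 0.089, adjusted p = 0.0375 from limma). The spermatid linker histone Hils1 differed by log2 0.05 (adjusted p = 0.867 from limma).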
